A study of Mus musculus with 12 samples.

Results

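Transcripts of the ephrin, Slit, netrin and repulsive guidance molecule (RGM) families were measured in tumor cells sorted from mouse brains. Members were taken by gene symbol, namely Eph receptors and ephrins of both classes, Slits and Robos, together with Ntn1, Ntn4, Dcc, Neo1, Unc5a to Unc5d, Rgma, Rgmb and Draxin. This gave 39 genes of 19938 measured, 23 receptors and 16 ligands. Other genes of these families were not analysed as members, though a few (Ntn3, Ntn5, Ntng1 and Hjv) stand among the partners below. The pEGFR-Hi and pEGFR-Lo tumors, of 6 mice each, grew from tumor progenitor lines that differ in the phosphorylation of EGFRvIII, a constitutively active truncated EGF receptor. Both lines came from subventricular zone neural progenitors of Ink4a/Arf null mice transduced with human EGFRvIII and were then passed through mice as tumors, and all cells carried the fluorescent protein ZsGreen. FVB mice, of an age the sources do not give, received 2 µl of a suspension of 200000 cells/µl in the brain. Each group is 1 line, so the error below is the spread among mice and not among lines. Brains were collected around the median survival of mice with each tumor type, so that time since injection differs with the line and their parts cannot be told apart.

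These molecules are cell surface and secreted cues first known for steering growing axons and migrating neural cells, and many also act in blood vessels. Ephrins are held in the membrane and bind Eph receptor tyrosine kinases on neighbouring cells, with signals passing into both cells. Slits are secreted and act through Robo receptors, mostly as repellents. Netrins attract through Dcc or neogenin and repel through Unc5 receptors, while RGMs bind neogenin.

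Levels are log2 values from 1 microarray per mouse, normalized by the robust multi-array average method (RMA), and a difference of 1 is 2-fold. Differences are pEGFR-Hi minus pEGFR-Lo. A gene was called where limma gave a difference of 2-fold or more with a Benjamini-Hochberg adjusted p under 0.01. A level of 4.10, the 95th percentile of olfactory receptor gene means, was taken as background. The array medians lay between 4.81 and 4.88. Fewer cells that express a gene and less RNA per cell cannot be told apart in these bulk samples. The 8 neural progenitor markers averaged 8.64 to 8.79 per array in pEGFR-Hi and 8.34 to 8.48 in pEGFR-Lo cells, with 2 called higher in pEGFR-Hi cells (Prom1 and Cd44), 1 lower (Fabp7) and 5 not called. Of those 5, Sox2 was at 9.49 in pEGFR-Hi and 8.99 in pEGFR-Lo cells without overlap. Interferon-stimulated genes set pEGFR-Lo replicates 3 and 6 apart, with a mean of 5.34 and 5.32 per array, against 6.51 to 7.15 in the other pEGFR-Lo mice and 7.97 to 9.14 in the pEGFR-Hi mice. All 9 members called below were also called without these 2 mice. The targeted gene Cdkn2a, which encodes Ink4a and Arf, was at 5.26 in pEGFR-Hi and 5.36 in pEGFR-Lo cells. The position of its probes relative to the deleted part is not known here, so this checks nothing.

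Nearly all of the ligands were above background in these tumor cells, and fewer of the receptors were. Among the ligands, 13 of 16 had a mean above background in pEGFR-Hi and 14 in pEGFR-Lo cells. Of the 23 receptors, 11 had a mean above background in pEGFR-Hi and 13 in pEGFR-Lo cells. Among all 19938 genes these counts were 13335 and 13501. Above background in either group were 87.5% of the ligands, 60.9% of the receptors and 69.1% of all genes. The 11 members below background in both groups were Epha1, Epha3, Epha6, Epha7, Efna5, Slit2, Robo3, Robo4, Dcc, Unc5a and Unc5c.

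**Figure D1:**
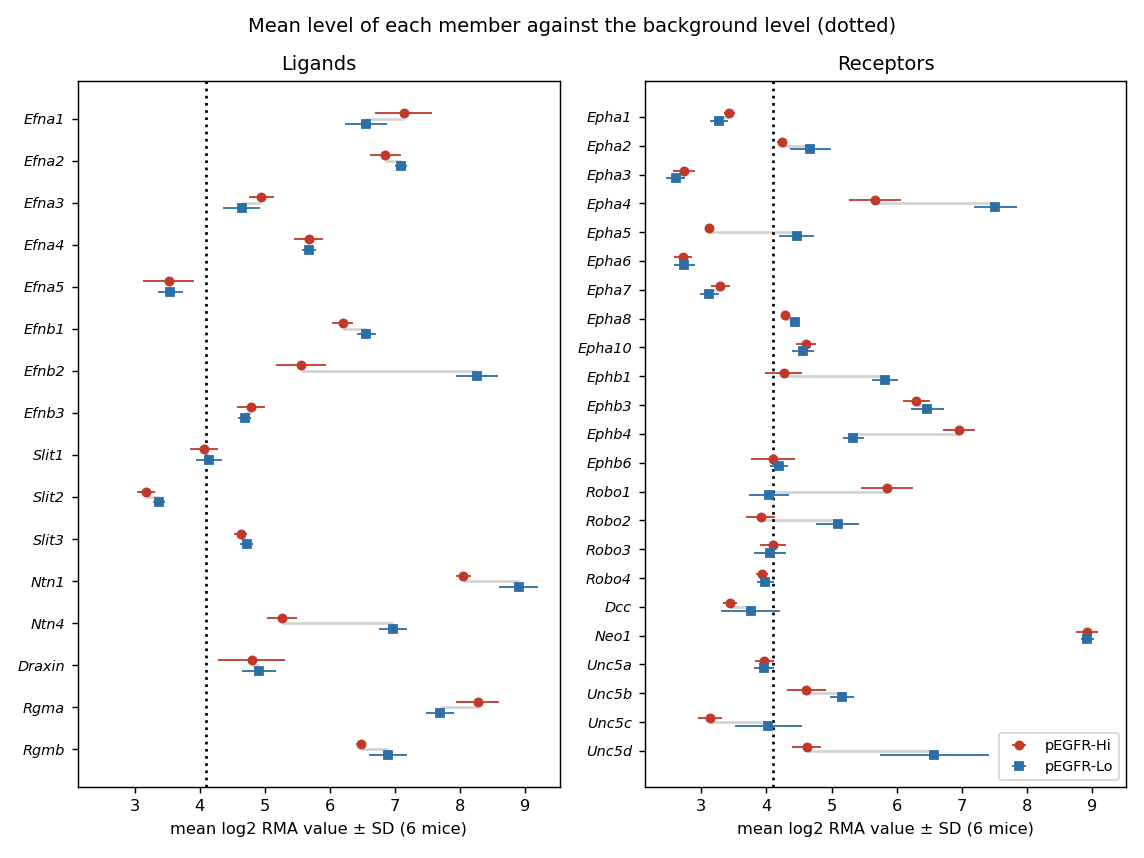
Mean log2 RMA value of each of the 39 members in pEGFR-Hi (red circles) and pEGFR-Lo (blue squares) cells, ligands at the left and receptors at the right, with the SD over 6 mice as bars and the background of 4.10 dotted. 11 members stand left of the dotted line in both groups, and Efnb2 has the widest gap among the ligands.

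Between the tumors, 2 members were higher in pEGFR-Hi cells (Robo1 and Ephb4) and 7 were lower (Efnb2, Unc5d, Epha4, Ntn4, Ephb1, Epha5 and Robo2), and 30 were not called. As a share of the 39 members these are 5.13% higher and 17.9% lower, beside 3.99% higher and 5.06% lower among all genes tested. Both members called higher are receptors. Those called lower are 5 receptors and 2 ligands. The median difference over the 39 members was -0.09, beside 0.01 over all genes, with 13 differences above 0 and 26 below. All pEGFR-Hi mice lay above all pEGFR-Lo mice for 2 of the 39 members, beside 2437 of all 19938 genes (12.2%). All pEGFR-Lo mice lay above all pEGFR-Hi mice for 10 of the 39 members, beside 2205 of all 19938 genes (11.1%). These 10 include Slit2, which was below background in both groups.

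**Figure D2:**
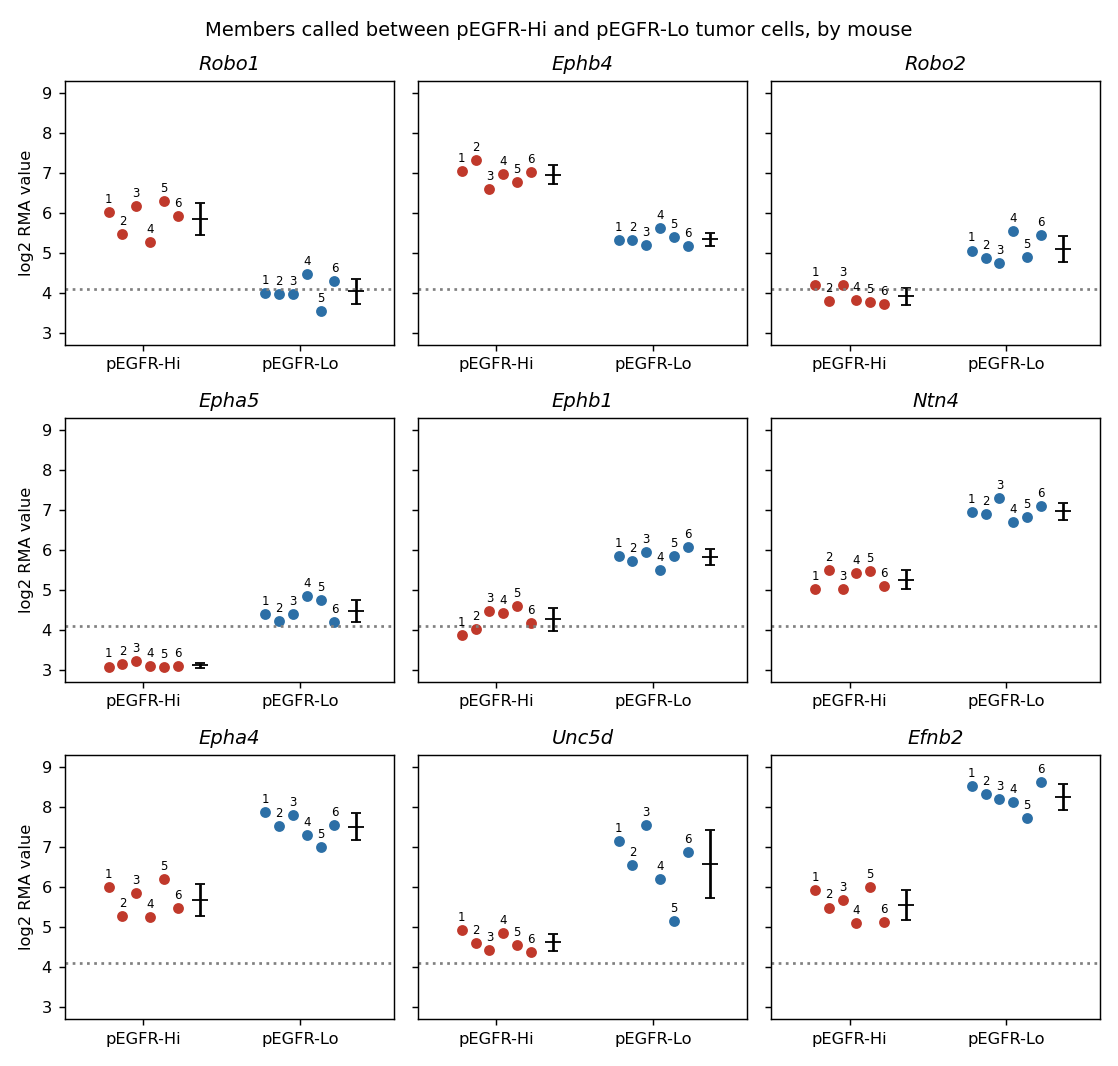
Log2 RMA value of the 9 called members in each mouse (points, with the replicate number), pEGFR-Hi at the left and pEGFR-Lo at the right of each panel, with the mean and SD as a bar and the background of 4.10 dotted. In every panel the points of the groups do not overlap, and the pEGFR-Lo points of Unc5d are spread from 5.16 to 7.56.

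Members of the B class, which pair the transmembrane ephrin-B ligands with EphB receptors, held the largest difference of the 39 and moved in opposite directions. Efnb2, which encodes ephrin-B2, a ligand required for blood vessel formation, had a lowest, median and highest value of 5.11, 5.58 and 6.0 in pEGFR-Hi cells and of 7.73, 8.27 and 8.63 in pEGFR-Lo cells. The groups lay far apart, with the highest pEGFR-Hi mouse well under the lowest pEGFR-Lo mouse. Efnb2 averaged 5.55 ± 0.386 in pEGFR-Hi and 8.26 ± 0.32 in pEGFR-Lo cells (SD, n = 6 each), a difference of -2.71 (SE 0.176, 95% interval -3.08 to -2.33) or 6.53-fold (limma adjusted p = 5.33e-09). Ephb4, the EphB receptor that binds ephrin-B2 most selectively, went the other way. Its lowest, median and highest values were 6.61, 6.99 and 7.32 in pEGFR-Hi cells and 5.18, 5.31 and 5.61 in pEGFR-Lo cells. All pEGFR-Hi mice were above all pEGFR-Lo mice. The mean was 6.96 ± 0.245 in pEGFR-Hi and 5.33 ± 0.16 in pEGFR-Lo cells, a difference of 1.62 (SE 0.114, 95% interval 1.38 to 1.86) or 3.08-fold (limma adjusted p = 1.25e-08).

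Ephb1, another receptor of the B class, guides retinal axons at the optic chiasm. Its values ran over 3.88, 4.29 and 4.6 (lowest, median and highest) in pEGFR-Hi cells and 5.49, 5.86 and 6.07 in pEGFR-Lo cells. Every pEGFR-Lo mouse was above background and above all pEGFR-Hi mice, while the pEGFR-Hi mice straddled background. The means of 4.26 ± 0.281 in pEGFR-Hi and 5.82 ± 0.20 in pEGFR-Lo cells differed by -1.56 (SE 0.129), or 2.95-fold (limma adjusted p = 8.15e-08). A second probe set of Ephb1 was below background in both groups, at 3.74 in pEGFR-Hi and 3.99 in pEGFR-Lo cells, and with the mean of both probe sets the difference of -0.91 was under 2-fold. The other analysed members of the class were not called, and Ephb2 was not among the 39 members. Ephb3 was at 6.30 in pEGFR-Hi and 6.47 in pEGFR-Lo cells (95% interval of the difference -0.43 to 0.10), and Ephb6, which lacks kinase activity, was near background in both. Efnb1 was at 6.19 in pEGFR-Hi and 6.56 in pEGFR-Lo cells, a difference of -0.37 (limma adjusted p = 0.00515) that was under 2-fold, and Efnb3 was at 4.79 and 4.69 in pEGFR-Hi and pEGFR-Lo cells.

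In the A class, whose ephrins are anchored by a lipid, the calls were in the receptors. Epha4, which binds ephrins of both classes and repels axons of the corticospinal tract, was lower in pEGFR-Hi cells. Its lowest, median and highest values were 5.24, 5.66 and 6.20 in pEGFR-Hi cells and 7.0, 7.55 and 7.88 in pEGFR-Lo cells. No pEGFR-Hi mouse came within the pEGFR-Lo range. The means were 5.67 ± 0.40 in pEGFR-Hi and 7.52 ± 0.327 in pEGFR-Lo cells, which differ by -1.84 (SE 0.181, 95% interval -2.23 to -1.46) or 3.59-fold (limma adjusted p = 5.80e-07). Epha5, a receptor of topographic axon maps, was below background in all pEGFR-Hi mice, at 3.06 to 3.23 (median 3.09), against 4.20 to 4.85 (median 4.40) in pEGFR-Lo mice. The ranges were separate, but pEGFR-Lo cells were only slightly above background. The difference was -1.35 (limma adjusted p = 6.23e-08), and against background pEGFR-Hi cells were at least 1.29-fold lower.

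Epha2, a receptor often raised in glioma, was not called. The pEGFR-Hi mice were all below the lowest pEGFR-Lo mouse, with a mean of 4.24 in pEGFR-Hi and 4.68 in pEGFR-Lo cells and a difference of -0.43 (limma adjusted p = 0.0103). Replicates 3 and 6 held the highest pEGFR-Lo values, 5.05 and 5.02, and without these 2 mice the difference was -0.25 (limma adjusted p = 0.0558). Epha8 and Epha10 lay just above background in both groups, and Epha1, Epha3, Epha6 and Epha7 lay below it. None of the 5 A-class ephrins was called. Efna1 was at 7.14 in pEGFR-Hi and 6.55 in pEGFR-Lo cells, with a difference of 0.58 (limma adjusted p = 0.0231). Efna3 was at 4.95 in pEGFR-Hi and 4.65 in pEGFR-Lo cells, and Efna4 was at 5.67 in both (95% interval of the difference -0.21 to 0.22). These 3 genes are direct neighbours on chromosome 3, with differences of 0.58, 0.30 and 0.00. Efna2 was at 6.85 in pEGFR-Hi and 7.09 in pEGFR-Lo cells.

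**Figure D3:**
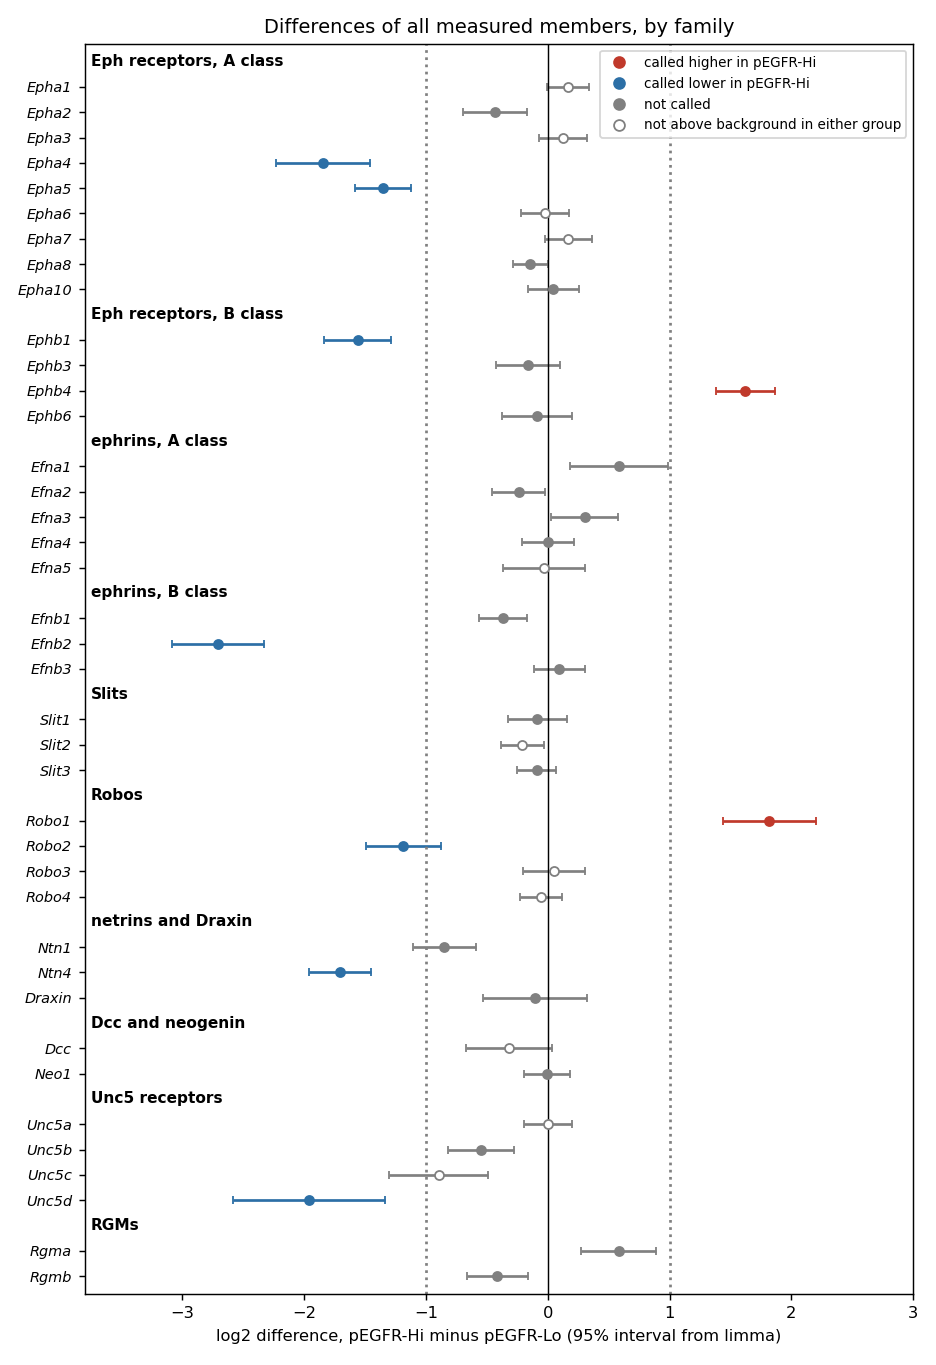
Log2 difference, pEGFR-Hi minus pEGFR-Lo, of each member with its 95% interval from limma, grouped by family, with members called higher in red, called lower in blue, not called in gray and below background in both groups as open circles. Dotted lines mark 2-fold, and Ephb4 and Robo1 are the members to the right of the upper line.

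Promoter sequences of 3 called members of the ephrin system, Ephb4, Efnb2 and Epha4, are shown so that their DNA can be set beside their changes, higher for Ephb4 and lower for Efnb2 and Epha4. Each is the 250 bases before the annotated start of the gene on its own strand, 5′ to 3′, from RefSeq on GRCm38.p6, at chr5:137349859-137350108 (plus strand) for Ephb4, chr8:8661243-8661492 (minus strand) for Efnb2 and chr1:77515089-77515338 (minus strand) for Epha4. Capitals mark matches, on either strand, of GGGCGG (the GC box), CCAAT and TATAAA.
Ephb4: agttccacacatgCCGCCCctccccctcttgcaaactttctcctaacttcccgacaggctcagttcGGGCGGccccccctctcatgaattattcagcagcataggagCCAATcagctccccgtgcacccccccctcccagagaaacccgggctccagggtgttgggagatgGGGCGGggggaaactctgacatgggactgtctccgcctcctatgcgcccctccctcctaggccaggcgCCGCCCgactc
Efnb2: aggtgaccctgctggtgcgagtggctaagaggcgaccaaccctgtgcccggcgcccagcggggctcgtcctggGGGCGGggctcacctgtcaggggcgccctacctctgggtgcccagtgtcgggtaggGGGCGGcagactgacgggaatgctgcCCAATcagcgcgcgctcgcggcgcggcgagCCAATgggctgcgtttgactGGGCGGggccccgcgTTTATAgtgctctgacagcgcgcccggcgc
Epha4: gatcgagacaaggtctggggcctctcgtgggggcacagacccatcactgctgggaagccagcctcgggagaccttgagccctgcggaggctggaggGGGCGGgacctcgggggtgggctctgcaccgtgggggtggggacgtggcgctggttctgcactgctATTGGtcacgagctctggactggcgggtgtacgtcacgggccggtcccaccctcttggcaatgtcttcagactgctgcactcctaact
Ephb4 held 4 matches of GGGCGG and 1 of CCAAT. Efnb2 held 3 of GGGCGG, 2 of CCAAT and 1 of TATAAA. The TATAAA match lies 30 bases before the start, on the strand opposite to the gene. Epha4 held 1 each of GGGCGG and CCAAT, and no matches overlapped. Among all 32851 promoter windows of this length, 32.7% held GGGCGG, 33.8% CCAAT and 12.4% TATAAA. Neither TTCNNNGAA, the core of STAT sites, nor TGANTCA, the AP-1 site, was found in these windows, and 7.02% and 6.75% of all windows held them. Windows were given for 33 of the 39 members. Of the 7 called members with 1 window, 5 held GGGCGG, 4 CCAAT and 1 TATAAA. Robo2 had 3 windows.

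The Robo receptors, which carry the repellent signal of Slits, changed in opposite directions. Robo1, a receptor of migrating neurons and commissural axons, had a lowest, median and highest value of 5.28, 5.97 and 6.29 in pEGFR-Hi cells and of 3.55, 3.98 and 4.46 in pEGFR-Lo cells. All pEGFR-Hi mice were above background and above all pEGFR-Lo mice, of which 2 of 6 exceeded background. The means were 5.86 ± 0.40 in pEGFR-Hi and 4.04 ± 0.313 in pEGFR-Lo cells, a difference of 1.82 (SE 0.178, 95% interval 1.44 to 2.20, limma adjusted p = 5.71e-07), and at least 3.37-fold against background. Robo2, which often acts beside Robo1 in axon guidance, was at 3.72, 3.80 and 4.19 (lowest, median and highest) in pEGFR-Hi cells and at 4.74, 4.98 and 5.54 in pEGFR-Lo cells. The groups did not overlap, and the pEGFR-Hi mean was below background. The difference was -1.18 (SE 0.143, 95% interval -1.49 to -0.88, limma adjusted p = 5.85e-06), and pEGFR-Hi cells were at least 1.99-fold lower against background. In the RefSeq order of genes no protein-coding gene stands between Robo1 and Robo2 on chromosome 16.

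Robo3, which acts at the midline, and Robo4, known from endothelium, were below background in both groups. No Slit was called. Slit3 was at 4.63 in pEGFR-Hi and 4.72 in pEGFR-Lo cells. Slit1 was at 4.06 in pEGFR-Hi and 4.15 in pEGFR-Lo cells, around background. Slit2 was below background in both, at 3.17 in pEGFR-Hi and 3.38 in pEGFR-Lo cells, although the values of the groups did not overlap.

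Both netrin members, Ntn1 and Ntn4, had lower values in pEGFR-Hi cells, and 1 of them, Ntn4, was called. Among the partners below, Ntn3 differed by -0.58 (limma adjusted p = 0.00294) and Ntn5 by 0.03, and neither was called. Ntn4 encodes a netrin of basement membranes that binds laminin. Its lowest, median and highest values were 5.02, 5.26 and 5.49 in pEGFR-Hi cells and 6.69, 6.93 and 7.31 in pEGFR-Lo cells. The groups were separate and the mice of each lay close together. Ntn4 averaged 5.26 ± 0.23 in pEGFR-Hi and 6.97 ± 0.216 in pEGFR-Lo cells, a difference of -1.71 (SE 0.12, 95% interval -1.96 to -1.45) or 3.26-fold (limma adjusted p = 1.34e-08). Ntn1, the classical attractant of commissural axons, was well above background in every mouse, at 7.94, 8.02 and 8.21 (lowest, median and highest) in pEGFR-Hi cells and 8.42, 8.92 and 9.25 in pEGFR-Lo cells. The groups did not overlap. The difference of -0.85 (limma adjusted p = 3.29e-05) was 1.80-fold and thus not called, but without pEGFR-Lo replicates 3 and 6 it was -1.0 (limma adjusted p = 2.74e-06) and called. Draxin, a secreted repellent that binds Dcc and netrin, was at 4.8 in pEGFR-Hi and 4.91 in pEGFR-Lo cells.

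Among the netrin receptors, Unc5d was lower in pEGFR-Hi cells. Unc5d, a repulsive receptor that also binds FLRT proteins in the developing cortex, was at 4.37, 4.57 and 4.92 (lowest, median and highest) in pEGFR-Hi cells and at 5.16, 6.71 and 7.56 in pEGFR-Lo cells. The pEGFR-Lo mice differed widely among themselves, and replicate 5 was the lowest of them, still above every pEGFR-Hi mouse. The means of 4.62 ± 0.219 in pEGFR-Hi and 6.58 ± 0.841 in pEGFR-Lo cells differed by -1.96 (SE 0.293, 95% interval -2.59 to -1.34) or 3.90-fold (limma adjusted p = 5.36e-05). A second probe set of Unc5d, at 3.81 in pEGFR-Hi and 7.0 in pEGFR-Lo cells, differed by -3.19. Unc5b, known from endothelial cells, was at 4.61 in pEGFR-Hi and 5.16 in pEGFR-Lo cells, a difference of -0.55 (limma adjusted p = 0.00284) that was under 2-fold. Unc5c averaged 3.13 in pEGFR-Hi and 4.03 in pEGFR-Lo cells, below background in both, with 3 pEGFR-Lo mice above it. Its difference of -0.90 (limma adjusted p = 0.00139) was not called, but was -1.03 and called without pEGFR-Lo replicate 4.

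Neogenin (Neo1), the shared receptor of netrins and RGMs, was at 8.93 in pEGFR-Hi and 8.93 in pEGFR-Lo cells, and its difference of 0.00 had a 95% interval of -0.19 to 0.19. Dcc and Unc5a were below background in both groups. Rgma, a neogenin ligand and coreceptor of bone morphogenetic proteins, was at 8.27 ± 0.334 in pEGFR-Hi and 7.69 ± 0.215 in pEGFR-Lo cells, a difference of 0.58 (limma adjusted p = 0.00432). Rgmb was at 6.47 in pEGFR-Hi and 6.89 in pEGFR-Lo cells, a difference of -0.41 (limma adjusted p = 0.0101). Neither Rgma nor Rgmb differed by 2-fold.

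Within the pEGFR-Hi group, the spread among mice had a shared form for some members. Replicates 1, 3 and 5 were the 3 highest pEGFR-Hi mice for Efnb2, Epha4, Robo1, Draxin, Efna5, Slit3 and Unc5a. These include members called in both directions, and the means of Efna5 and Unc5a lay below background. For Neo1 and Efna2 the same mice were the 3 lowest of the group. How often these 3 mice rank together over all genes was not counted. The same 3 mice had the highest interferon-stimulated gene means of the group, at 8.57, 8.74 and 9.14 against 7.97 to 8.19 in the other pEGFR-Hi mice. They also had its highest astrocyte marker means, at 5.87, 5.85 and 5.98 against 5.68 to 5.74, and the part of either in the members' values was not tested. The replicates have no order, and these members were picked out after their values were seen.

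Because some members are also expressed by vessels, neurons or normal glia, markers of those cells were set beside them. The 13 endothelial markers averaged 3.82 to 4.10 per array in pEGFR-Hi and 3.79 to 4.02 in pEGFR-Lo cells, with none called. The defining endothelial genes Cdh5 and Pecam1 were below background in both groups, at 3.73 and 3.75 in pEGFR-Hi and at 3.76 and 3.78 in pEGFR-Lo cells. Other endothelial markers differed by less than 2-fold but without overlap between the groups. Flt1 was at 5.04 in pEGFR-Hi and 4.21 in pEGFR-Lo cells, Erg at 4.94 and 4.35, and Egfl7 at 6.01 and 5.32 (limma adjusted p = 8.84e-05, 3.24e-04 and 1.43e-04). Emcn was below background in both groups, at 2.45 in pEGFR-Hi and 3.37 in pEGFR-Lo cells (limma adjusted p = 0.00252). The part of these markers in the members' differences was not tested. The 10 pericyte and smooth muscle markers averaged 4.48 to 4.95 in pEGFR-Hi and 4.58 to 5.02 in pEGFR-Lo cells, with Anpep higher and Rgs5 lower in pEGFR-Hi. Anpep was at 5.35 in pEGFR-Hi and 3.63 in pEGFR-Lo cells, at least 2.38-fold higher against background. Rgs5 was at 3.97 in pEGFR-Hi and 7.59 in pEGFR-Lo cells, at least 11.2-fold lower. The part of the pericyte and smooth muscle markers in the members' differences was not tested. Markers of microglia and macrophages averaged 4.14 to 4.38 in pEGFR-Hi and 4.14 to 4.61 in pEGFR-Lo cells, with 1 called higher (Cd68) and 1 lower (P2ry12) of 11. Of the 11 markers of mature neurons none was called, and their means were 4.04 to 4.15 in pEGFR-Hi and 4.14 to 4.48 in pEGFR-Lo cells. At an unadjusted limma p under 0.05, 5 of them were lower and 0 higher in pEGFR-Hi cells. The share of all genes at this limit was not counted. At an adjusted limma p under 0.05, which is stricter, 3871 of all 19938 genes were higher and 3314 lower. Snap25 was at 3.58 in pEGFR-Hi, below background, and at 4.40 in pEGFR-Lo cells without overlap (limma adjusted p = 1.08e-06). The part of the neuron markers in the members' differences was not tested. Oligodendrocyte markers averaged 3.71 to 3.87 in pEGFR-Hi and 4.08 to 4.25 in pEGFR-Lo cells, with 1 lower of 9 (Ermn) and 0 higher. Ermn was at 3.28 in pEGFR-Hi and 5.46 in pEGFR-Lo cells, at least 2.57-fold lower against background. The part of the oligodendrocyte markers, or of those of microglia and macrophages, in the members' differences was not tested. Of the 10 astrocyte markers, 4 were lower in pEGFR-Hi cells (Slc1a3, S100b, Slc1a2 and Gja1) and 1 was higher (Gfap), and their means were 5.68 to 5.98 in pEGFR-Hi and 6.79 to 7.23 in pEGFR-Lo cells. The other 5 astrocyte markers were not called, and the part of the astrocyte markers in the members' differences was not tested.

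Known partners and signaling proteins of the members were read from 3 lists. Of 33 measured effectors of Ephs and ephrins, 1 was higher and 6 were lower in pEGFR-Hi cells, beside 3.99% and 5.06% of all genes, and their median difference was -0.12. The effector called higher was Yes1, a Src-family kinase (1.12, 2.17-fold, limma adjusted p = 7.18e-06). Fyn, the Src-family kinase that transmits signals of ephrins, fell by 1.78 on the log2 scale (3.44-fold, limma adjusted p = 2.04e-09). Chn1, which encodes the Rac-inactivating chimaerin that acts downstream of Epha4, fell by 1.69 (3.22-fold, limma adjusted p = 2.57e-08). Sipa1l1, a regulator of Rap GTPases, fell by 1.42 (2.67-fold, limma adjusted p = 3.69e-09). Anks1b, a postsynaptic scaffold related to the Eph adaptor Anks1, was at least 5.06-fold lower (limma adjusted p = 4.90e-12). The other lower ones were Vav3 and Kalrn.

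Of 21 measured effectors of Slits and Robos, 5 (23.8%) were lower and 0 higher by limma, beside 5.06% and 3.99% of all genes. At an unadjusted limma p under 0.05, 3 were above 0 and 9 below, and SAM called 0 higher and 5 lower. How many of all genes pass this unadjusted limit was not counted, but 3871 of 19938 were higher and 3314 lower at an adjusted p under 0.05. The median difference of these effectors was -0.18. Nell2, a secreted ligand of Robo3, fell by 3.58 on the log2 scale (limma adjusted p = 3.84e-11). The Robo-binding proteins Srgap3 and Srgap1 were 7.27-fold and 2.82-fold lower (limma adjusted p = 9.38e-11 and 3.20e-07), and Pak3, a kinase activated by Rac and Cdc42, was at least 5.63-fold lower (limma adjusted p = 2.75e-10). Flrt3, a coreceptor of Robo1 in thalamic axons, was the remaining gene called.

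Of 34 measured partners of netrins, RGMs, Dcc and neogenin, 1 was higher (2.94%) and 7 were lower (20.6%), beside 3.99% and 5.06% of all genes. Their median difference was -0.43. Flrt2, a ligand of Unc5d, rose by at least 2.23-fold (a difference of 2.12, limma adjusted p = 4.62e-07), opposite to Unc5d itself. Lrrc4c, the netrin-G1 ligand of synapses, was at least 8.0-fold lower (limma adjusted p = 6.22e-12), and its binding partner Ntng1 was also called lower. Dscam, a receptor that binds netrin, was at least 5.48-fold lower (limma adjusted p = 6.60e-10), and Adgrl3, a latrophilin that binds FLRT proteins, was 5.11-fold lower (limma adjusted p = 9.21e-09). Fyn, Flrt3 and the neuronal tubulin Tubb3 made up the rest. Counted once each, the 80 genes of the 3 lists held 2 called higher and 16 called lower, since some genes stand in more than 1 list. These are 2.5% higher and 20% lower, beside 3.99% and 5.06% of all genes. The lists were written with results of these data known, so their direction is not independent of the data.

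**Figure D4:**
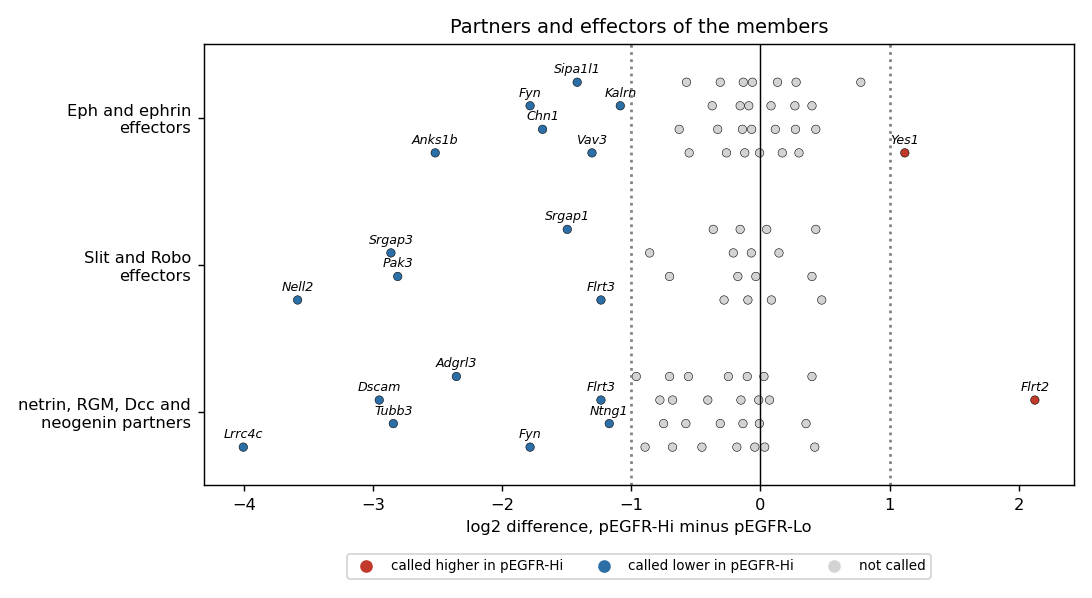
Log2 difference, pEGFR-Hi minus pEGFR-Lo, of each measured gene (points) of the 3 lists of partners and effectors, called higher in red, called lower in blue and not called in gray, with dotted lines at 2-fold. The called genes are named, and Yes1 and Flrt2 are those right of the upper line.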

How the data were processed

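RNA of sorted tumor cells was measured on 12 Affymetrix Mouse Gene 1.0 ST arrays, 6 per group, with groups and replicate numbers from the labels. After papain digestion and a Percoll gradient, ZsGreen-positive cells without DAPI were sorted. The authors deposited log2 values made with RMA in Affymetrix Expression Console, which corrects background, quantile-normalizes across arrays and summarizes each probe set, so that a change in total RNA per cell is not seen. The sources used here do not name the genome build behind them.

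Of the probe sets, 21789 had 1 gene symbol, 1621 several and 12146 none, and only the first kind was used. Symbols of 21698 were matched to RefSeq of GRCm38.p6, which served for names, gene order and promoter sequence only. The brightest probe set stood for a gene (19938 genes, 39 of them members, 3 with a second probe set). Background was the 95th percentile of 1027 olfactory receptor gene means. Where the dimmer group's mean was not above background, the fold was taken against background and given as at least that fold.

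The groups were compared over all genes with limma 3.58.1 (lmFit, eBayes) in R 4.3.3. The data.table package (version 1.17.8) loaded the values. Matplotlib 3.10.9 drew the figures. Calls needed a Benjamini-Hochberg adjusted p under 0.01 and 2-fold. Alternatives were SAM with 100 permutations (the study's test), a looser limit (adjusted p under 0.05 and any fold), array weights, a replicate block, averaged probe sets per gene, removal of dim genes, a second quantile normalization, array medians set equal, and eBayes with its trend and robust options. Each array was left out in turn, and pEGFR-Lo replicates 3 and 6 together. The code was tested on simulated data. The number of arrays limits the precision.

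The members and lists were chosen with earlier results of these data known. Every member was accounted for, and up to 4 genes with the smallest adjusted p per list and direction were named with values, the other called ones by name. Some list genes were not analysed here.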

Additional observations from a re-analysis of the deposited data

Results flagged for a closer look

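In 5 of the 78 sets of 6 mice (39 members in each group), 1 mouse lay far from the others, with a gap to its neighbour larger than Dixon's 95% limit. Chance gives about 1 in 20, or 3.9 of 78. Efna1 was at 5.95 in pEGFR-Lo replicate 3, below the 6.54 to 6.82 of the other pEGFR-Lo mice. The other values lay near or below background. Ephb6 was at 3.46 in pEGFR-Hi replicate 5, against 4.10 to 4.42 in the other pEGFR-Hi mice. Slit1 was at 3.65 in pEGFR-Hi replicate 3, against 4.01 to 4.22. Unc5a was at 3.68 in pEGFR-Hi replicate 6, against 3.97 to 4.10. Epha3 was at 2.88 in pEGFR-Lo replicate 6, against 2.49 to 2.61 in the other pEGFR-Lo mice. None of these 5 members was called.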

How the results depend on the processing

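No called member or named partner changed sign, and 8 of the 9 called members and all 13 named partners kept their call under every alternative in which they were tested. The exception was Ephb1 with the mean of its probe sets (-0.91), and Epha5 was left out by the filter on dim genes. Each of these left 6 members called lower. With an adjusted p under 0.05 and no fold limit, limma called 4 members higher and 13 lower, 5 and 11 effectors of Ephs and ephrins, 3 and 9 of Slits and Robos, and 4 and 20 partners of netrins, RGMs, Dcc and neogenin, beside 3871 and 3314 of all genes (795 and 1009 at the main limits). Leaving out 1 mouse at a time gave 2 to 2 members higher and 7 to 8 lower, 1 to 1 and 6 to 6 effectors of Ephs and ephrins, 0 to 0 and 5 to 5 of Slits and Robos, and 1 to 1 and 7 to 8 netrin, RGM, Dcc and neogenin partners. The member added was Unc5c, without pEGFR-Lo replicate 4. Without pEGFR-Lo replicates 3 and 6, Ntn1 was added, for 8 members lower, and 5 rather than 6 effectors of Ephs and ephrins were called lower.

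The replicate numbers did not pair the mice. Same-numbered mice had correlations of -0.137 to 0.0974 between their deviations from the group means, with 0 of 6 over 0.1, and for 1 number the best-correlated mouse was its own. With the replicate number as a block, 2 members were higher and 7 lower, over 801 and 1008 genes, and this block changed no call of a member. Levels near background limit Epha5, Robo2 and Robo1 to bounds, and members below it in both groups have no fold.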
